A study of Mus musculus with 20 samples.

Results

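The response of wild-type (WT) mouse hearts to ischemia-reperfusion (IR) was followed by RNA-seq of myocardium. It covered 10 of the 20 hearts of the study, 5 WT-IR hearts against 5 WT-Con hearts. All 10 came from C57BL/6J mice of 3 months without a transgene. The hearts were removed and perfused with buffer on a Langendorff apparatus, so that they beat outside the body and met no circulating blood. WT-Con hearts were perfused for 120 min without a pause. WT-IR hearts had 40 min of equilibration, 20 min without flow and 60 min of reperfusion, so both groups had the same time on the apparatus. The other 10 hearts came from fat-1 mice, which carry an n-3 fatty acid desaturase gene of Caenorhabditis elegans, and were used only to share the estimate of spread and to set the WT changes beside those of fat-1 hearts. Of 31874 genes in the file, the 18219 with a mean of at least 0.1 FPKM (fragments scaled to the exon length of the gene and to the assigned fragments of the library) were compared. Genes of heat shock chaperones, interferon-stimulated genes and immediate-early genes are given only as counts.

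The myocardium holds cardiomyocytes, the large contractile cells, together with capillary endothelium, fibroblasts, pericytes and resident macrophages, which are smaller and more numerous. Stopping flow takes away oxygen and substrate together with the shear stress that endothelium senses. In the paper's preparation a water-filled balloon recorded the pressure of the left ventricle, and stretch of cardiomyocytes was not measured here. Return of flow brings oxygen radicals, a calcium load and renewed shear within minutes. NF-kB, a family of transcription factors, drives many genes of inflammation together with inhibitors that limit its own activity. The comparison asks what the ischemic pause and reperfusion added to, or took from, hearts kept on the apparatus for equally long.

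The WT libraries held 15626847 to 22247960 fragments assigned to genes. In WT-Con 5, the shallowest, 15.1% of fragments came from the mitochondrial genome, against 31.5% to 33.8% in the other 4 WT-Con hearts and 28.4% to 39.3% in the WT-IR hearts. That heart also had the highest mean log2 level of ribosomal protein genes (7.23, against 5.40 to 5.70 in the other WT-Con hearts). WT-IR 4 and WT-IR 5 had the lowest levels of several inflammatory gene lists, as given beside each result. Cardiomyocyte markers were at a mean log2 level of 9.60 to 10.27 in WT-Con and 9.44 to 9.77 in WT-IR, and 13 of 13 had a log2 fold change below 0, with 0 called and a median of -0.25, which was -0.04 without WT-Con 5. The mean of endothelial markers was 3.97 to 4.26 in WT-Con and 4.23 to 4.58 in WT-IR, where the groups just met, and that of fibroblast markers was 3.80 to 4.14 and 4.26 to 4.67, without overlap. Lymphocyte markers were scarce, with summed levels of 0.606 to 1.97 FPKM in WT-Con and 0.660 to 3.52 FPKM in WT-IR. In such bulk tissue, fewer cells of a type and less RNA per cell cannot be told apart.

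Compared with WT-Con, 367 genes (2.01% of those tested) were upregulated and 216 (1.19%) were downregulated in WT-IR, called where limma gave more than a 1.5-fold difference with an adjusted p below 0.05. The median log2 fold change over all genes was 0.04. With the values scaled to genes outside the mitochondrial genome, that median was 0.16 and the counts were 596 and 162, so that 78.6% of the calls were upward in place of 63.0%, and with TPM scaling 50.8% were. With the WT hearts fitted alone the counts were 138 and 66, without WT-IR 5 they were 253 and 140, and without WT-Con 5 they were 437 and 309. Of the 149 genes chosen by rule to be named, 63 were not called in the fit of the WT hearts alone. Of the 583 genes, 49 were in the chaperone, interferon and immediate-early lists, and 534 were not (350 upregulated, 184 downregulated). Among upregulated genes, 276 had every WT-IR heart above every WT-Con heart, and among downregulated genes 146 had every WT-IR heart below, while 3.36% and 1.39% of all tested genes did so. The plot of list members by direction shows the outline of the response. Vascular, guidance and matrix lists stood on the upregulated side, and the stretch and hypertrophy, NF-kB and cytokine lists on the downregulated side. The shares of all tested genes, 2.01% upregulated and 1.19% downregulated, are the comparison for every list count below.

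**Figure D1:**
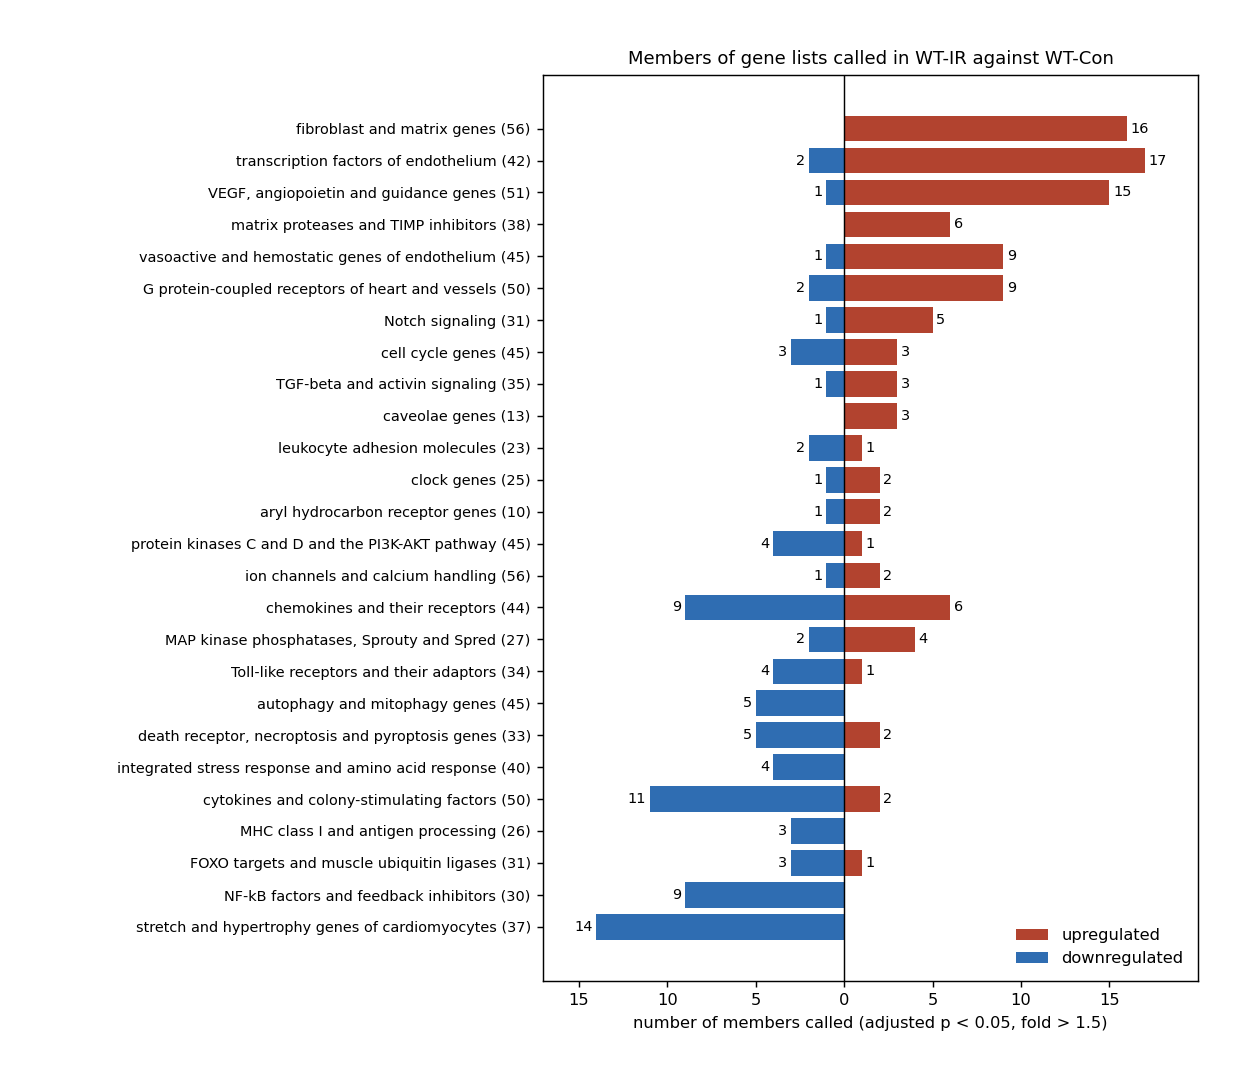
Number of members of each gene list called upregulated (red, right) or downregulated (blue, left) in WT-IR against WT-Con, for pathway lists with at least 3 called members, ordered by the median log2 fold change of the list; the number of tested members is in parentheses. The list of stretch and hypertrophy genes had 14 of 37 members downregulated and the list of fibroblast and matrix genes had 16 of 56 upregulated.

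The calls in the list of stretch and hypertrophy genes of cardiomyocytes were all downward. Of 37 tested genes of this list, 14 (37.8%) were downregulated and 0 upregulated, against 1.19% and 2.01% of all genes, with a median log2 fold change of -0.56. The 14 were Lmcd1, Nrap, Xirp2, Ankrd1, Sprr1a, Flnc, Lmod2, Hbegf, Abra, Klhl40, Klhl41, Popdc3, Des and Rcan1. They include proteins of the Z-disc and of the sites where new sarcomeres are anchored. Lmcd1, a LIM protein of the calcineurin pathway of hypertrophy, lay at 91.3, 53.04, 146, 82.6 and 60.6 FPKM in WT-Con 1 to 5 and at 25.6, 39.95, 28.2, 33.1 and 23.02 FPKM in WT-IR 1 to 5. Every WT-IR heart was below every WT-Con heart, a difference of -1.46 in log2 units (standard error 0.23, limma adjusted p = 0.000914). Xirp2, an actin-binding protein of the intercalated disc, had 125, 93.7, 172, 106 and 45.7 FPKM in WT-Con and 43.4, 45.6, 40.4, 41.4 and 32.4 FPKM in WT-IR, again without overlap (log2 fold change -1.30, limma adjusted p = 0.00498). Nrap, which takes part in building myofibrils, had 178, 149.7, 246, 161 and 90.5 FPKM in WT-Con and 75.1, 91.3, 74.6, 92.4 and 59.8 FPKM in WT-IR (log2 fold change -1.02, limma adjusted p = 0.00356). Its groups met, since WT-Con 5 was just below 2 WT-IR hearts.

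Ankrd1, the stretch-induced ankyrin repeat protein of the I-band, was, after Lmod2, the most abundant of the 14 in WT-Con by FPKM. It lay at 554, 623, 852, 726 and 990.3 FPKM in WT-Con and at 372, 440.3, 334, 575 and 270.5 FPKM in WT-IR, where WT-IR 4 overlapped with the lowest control (log2 fold change -0.93, limma adjusted p = 0.00538). Sprr1a, a small proline-rich protein known from stressed cardiomyocytes, had one of the largest decreases, from 9.07 ± 4.57 to 2.17 ± 1.28 FPKM (SD, n = 5 hearts), with a log2 fold change of -2.11. Flnc, the muscle filamin, went from 179, 109, 279, 167 and 75.5 FPKM to 57.98, 82.02, 66.4, 59.4 and 35.7 FPKM (log2 fold change -1.33, limma adjusted p = 0.00886). Flnc was lower in all WT-IR hearts except WT-IR 2 than in any WT-Con heart, WT-Con 5 being the lowest control. Des, the intermediate filament desmin, rested partly on WT-Con 5, where it was at 825.7 FPKM against 398.9 to 463.8 FPKM in the other controls, and was not called without that heart or in 14 other of the 26 alternative settings.

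The natriuretic peptides, the best known load markers, did not follow. Nppb lay at 296, 174, 470.4, 295 and 334 FPKM in WT-Con and 372, 338, 408, 331 and 139 FPKM in WT-IR (log2 fold change -0.00309, standard error 0.32), and Nppa at 31.8, 82.6, 208, 40.97 and 155 FPKM and 209, 166, 70.96, 83.9 and 81.7 FPKM (log2 fold change 0.46, standard error 0.45). Both overlapped widely between groups, and neither passed the test. Of 30 sarcomere genes 0 were called in either direction, in a list that does not hold the called structural genes Des, Flnc and Lmod2. The count of the stretch list was 1 with the WT hearts fitted alone, 7 without WT-Con 3, 7 without WT-IR 5, 5 without WT-IR 4 and WT-IR 5, and 14 without the 3 libraries that stood apart in composition (WT-Con 5 and, in fat-1 hearts, Fat1-IR 1 and 4). Its mean log2 level was 5.58 to 6.20 in WT-Con and 4.75 to 5.36 in WT-IR, so the groups did not overlap at the level of the list.

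Promoters of 3 of these genes are printed because each holds a binding motif known for muscle and load genes. They are RefSeq promoters of GRCm38.p6, 250 bases before to 50 after the start of transcription, 5′ to 3′ on the gene's strand, with the motif in capitals. The CArG box of serum response factor stands in Lmcd1 (chr6:112273508-112273807, plus strand), the MEF2 motif in Xirp2 (chr2:67445752-67446051, plus strand), and GGAATG of the TEAD factors, at 2 places, in Ankrd1 (chr19:36119795-36120094, minus strand).
Lmcd1: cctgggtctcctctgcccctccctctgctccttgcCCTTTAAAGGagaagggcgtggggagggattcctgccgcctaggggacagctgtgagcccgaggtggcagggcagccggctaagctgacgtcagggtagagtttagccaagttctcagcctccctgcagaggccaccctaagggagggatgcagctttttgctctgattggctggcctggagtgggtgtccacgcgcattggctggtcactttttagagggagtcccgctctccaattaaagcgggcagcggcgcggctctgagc
Xirp2: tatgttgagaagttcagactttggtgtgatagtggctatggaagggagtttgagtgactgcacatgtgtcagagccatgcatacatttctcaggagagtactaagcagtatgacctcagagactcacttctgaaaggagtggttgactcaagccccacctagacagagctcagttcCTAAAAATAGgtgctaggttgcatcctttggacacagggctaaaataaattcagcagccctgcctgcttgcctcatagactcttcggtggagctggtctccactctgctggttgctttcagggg
Ankrd1: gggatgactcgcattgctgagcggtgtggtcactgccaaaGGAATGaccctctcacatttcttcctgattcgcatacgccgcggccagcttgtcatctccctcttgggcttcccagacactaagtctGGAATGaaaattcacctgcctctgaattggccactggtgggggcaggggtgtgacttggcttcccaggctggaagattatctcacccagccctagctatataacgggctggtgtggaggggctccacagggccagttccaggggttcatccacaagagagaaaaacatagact
Among the 11 called members with a promoter in the table, the CArG box was found in 1, the MEF2 motif in 2 and GGAATG in 2, searched on both strands. Among the 29 tested members with a promoter, called or not, the counts were 4, 4 and 9. Over all 32851 promoters of the table these motifs stood in 1.63%, 0.56% and 14.7%. Counted per gene, as for the members, they stood in 1.66%, 0.70% and 14.8% of tested genes with a promoter. A match is a run of letters and does not show that a factor binds there.

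**Figure D2:**
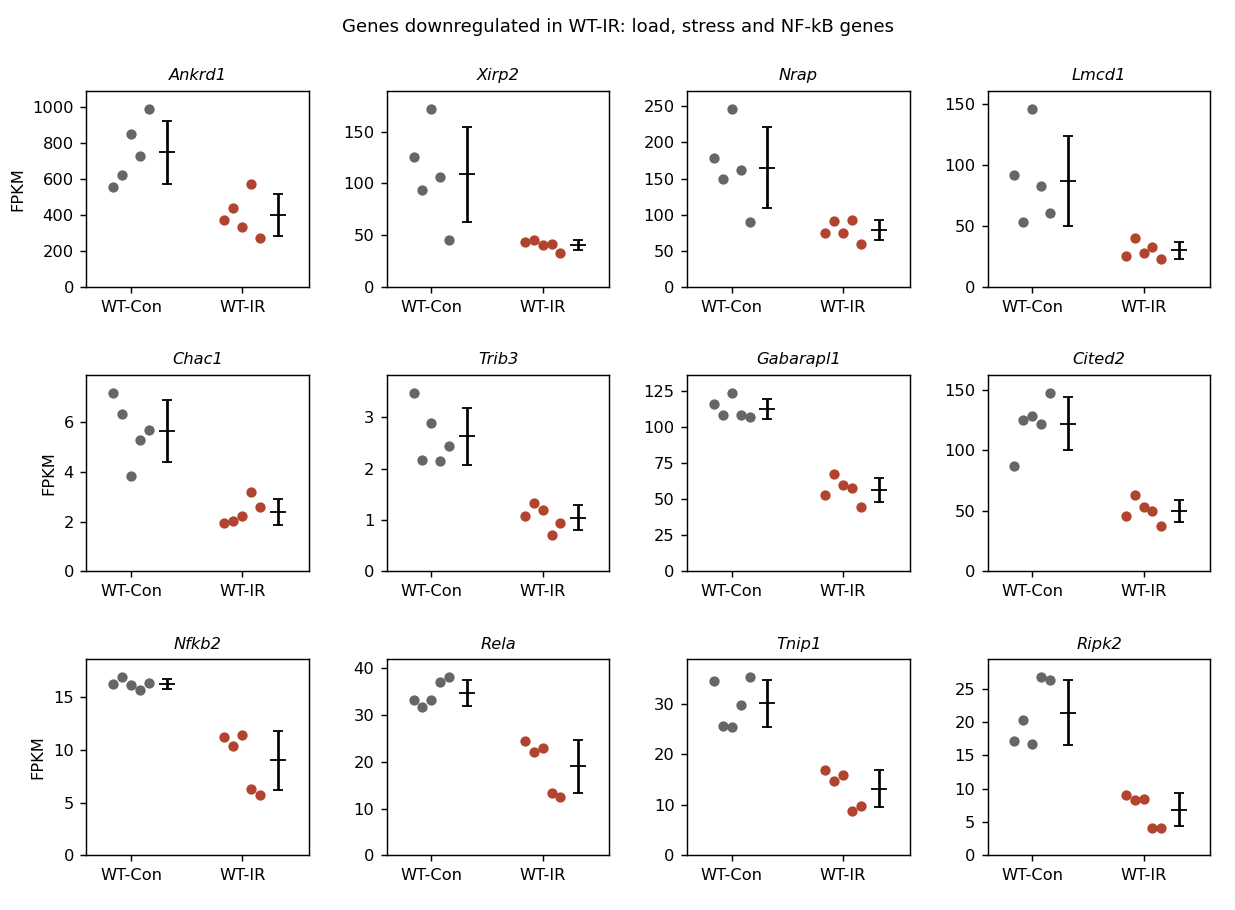
FPKM of 12 genes that were downregulated in WT-IR, in each of the 5 WT-Con (grey) and 5 WT-IR (red) hearts, with the mean and SD beside the points and each axis starting at 0. In the lower row WT-IR 4 and WT-IR 5 are the 2 lowest points for Nfkb2, Rela, Tnip1 and Ripk2, whereas in the upper row the WT-IR hearts lie close together for Xirp2 and Lmcd1.

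Genes of the integrated stress response, in which the factor ATF4 raises amino acid supply and redox enzymes, were downregulated where they were called. These were 4 of 40 members, with 0 upregulated. Chac1, an enzyme that degrades glutathione, had 7.17, 6.32, 3.84, 5.27 and 5.67 FPKM in WT-Con and 1.94, 2.01, 2.22, 3.21 and 2.58 FPKM in WT-IR. Its groups did not overlap, and its log2 fold change was -1.20 (standard error 0.19, limma adjusted p = 0.00103). Trib3, a pseudokinase induced by ATF4 and CHOP, had 3.47, 2.18, 2.898, 2.15 and 2.44 FPKM and 1.08, 1.33, 1.19, 0.699 and 0.932 FPKM (log2 fold change -1.26, limma adjusted p = 0.00619), also without overlap, but was not called without WT-IR 4 and WT-IR 5. Cars, the cysteinyl-tRNA synthetase, changed from 5.46 ± 1.22 to 2.898 ± 0.7296 FPKM and Asns, asparagine synthetase, from 5.38 ± 1.91 to 2.15 ± 1.13 FPKM, both lost without WT-IR 5. Atf4 itself had 71.2, 62.4, 83.2, 75.2 and 100.5 FPKM in WT-Con and 73.7, 60.2, 74.9, 41.8 and 42.03 FPKM in WT-IR and did not pass (limma adjusted p = 0.335), with the lowest values in WT-IR 4 and WT-IR 5. Ddit3, which encodes CHOP, lay at 11.9, 14.1, 14.3, 16.3 and 46.6 FPKM in WT-Con and 22.1, 18.8, 22.8, 16.5 and 17.01 FPKM in WT-IR and did not pass either. The median of the list was -0.16, and 1 member was called without WT-IR 4 and WT-IR 5.

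The promoters of Chac1 (chr2:119350992-119351291, plus strand) and Trib3 (chr2:152344011-152344310, minus strand) are shown because both hold the ATF4 motif TGATGNAA, searched on both strands and set in capitals.
Chac1: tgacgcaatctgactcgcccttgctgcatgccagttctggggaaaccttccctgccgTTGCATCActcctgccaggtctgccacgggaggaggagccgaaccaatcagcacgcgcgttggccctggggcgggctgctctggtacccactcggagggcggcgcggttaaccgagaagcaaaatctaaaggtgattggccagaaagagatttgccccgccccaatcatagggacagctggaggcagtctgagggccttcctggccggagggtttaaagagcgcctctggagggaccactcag
Trib3: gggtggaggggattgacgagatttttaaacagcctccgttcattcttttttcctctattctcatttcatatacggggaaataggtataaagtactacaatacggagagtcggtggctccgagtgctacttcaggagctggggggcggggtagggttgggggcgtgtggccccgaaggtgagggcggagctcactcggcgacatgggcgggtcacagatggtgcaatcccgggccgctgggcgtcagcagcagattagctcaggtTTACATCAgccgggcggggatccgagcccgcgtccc
The motif stood in 3 of the 3 called members found in the table and in 10 of 34 tested members. It stood in 2.92% of all tested genes with a promoter and in 3.97% of all promoters.

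Autophagy and FOXO genes gave few calls, nearly all downward. Of 45 autophagy and mitophagy genes 5 (11.1%) were downregulated and 0 upregulated. Of 31 FOXO targets and muscle ubiquitin ligases 3 (9.68%) were downregulated and 1 (3.23%) upregulated. Among all genes the shares were 1.19% and 2.01%. Gabarapl1, which coats autophagosome membranes and is a FOXO target, had 116, 109, 124, 109 and 107 FPKM in WT-Con and 53.2, 67.6, 59.8, 57.5 and 44.8 FPKM in WT-IR. The lowest control was well above the highest IR heart, at a log2 fold change of -1.01 (standard error 0.13, limma adjusted p = 0.000232). Cited2, which competes with HIF-1 for its coactivator, had 87.5, 125, 128, 122 and 148 FPKM and 45.6, 62.98, 52.9, 49.7 and 37.5 FPKM (log2 fold change -1.29, limma adjusted p = 2.39e-05), with no overlap. Mtmr14, a phosphoinositide phosphatase, changed from 8.79 ± 1.598 to 5.11 ± 0.387 FPKM, and Retreg1, a receptor for autophagy of the endoplasmic reticulum, from 164 ± 29.6 to 95.7 ± 18.3 FPKM. Arrdc4, an arrestin-domain protein of glucose uptake, changed from 17.4 ± 2.37 to 9.33 ± 1.84 FPKM. The ligase Fbxo32 (atrogin-1) had 27.3, 31.6, 23.9, 23.9 and 28.5 FPKM in WT-Con and 13.9, 18.5, 13.6, 25.8 and 17.4 FPKM in WT-IR and missed the threshold (limma adjusted p = 0.0648). The one upregulated member, the MAX partner Mxd4 (2.93 ± 0.332 to 4.92 ± 1.56 FPKM), was lost in 13 of 26 alternative settings.

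The calls among NF-kB factors and their inhibitors were also all downward. Of 30 members 9 (30.0%) were downregulated and 0 upregulated, with a median log2 fold change of -0.51 and 27 of 30 values below 0. The 9 were Tnip1, Rhbdf2, Rela, Nfkb2, Relb, Otulin, N4bp1, Nfkbie and Traf1. Nfkb2, the p100 precursor of the alternative pathway, was tight in WT-Con at 16.2, 16.9, 16.2, 15.7 and 16.4 FPKM and lay at 11.2, 10.4, 11.5, 6.28 and 5.697 FPKM in WT-IR. All WT-IR hearts were below all controls (log2 fold change -0.91, standard error 0.17, limma adjusted p = 0.00347). Rela, the p65 subunit, had 33.1, 31.7, 33.1, 37.1 and 38.1 FPKM in WT-Con and 24.4, 22.1, 23.01, 13.4 and 12.5 FPKM in WT-IR (log2 fold change -0.91, limma adjusted p = 0.00156). Tnip1, which works with the deubiquitinase A20 to restrain NF-kB, had 34.4, 25.5, 25.3, 29.7 and 35.2 FPKM in WT-Con and 16.8, 14.7, 15.97, 8.77 and 9.79 FPKM in WT-IR, a log2 fold change of -1.21 (limma adjusted p = 0.000237). In each of these genes WT-IR 4 and WT-IR 5 were the lowest hearts and WT-IR 1 to 3 lay between them and the controls.

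That split held for the list as a whole, whose mean log2 level was 2.94 to 3.11 in WT-Con, 2.74 to 2.85 in WT-IR 1 to 3, and 2.15 and 2.16 in WT-IR 4 and WT-IR 5. Without those 2 hearts 3 of the 30 members were called and the median was -0.19, 5 were called without WT-IR 5 alone, and with the WT hearts fitted alone 1 was called. Il6, a target of NF-kB and of stress kinases, had another pattern. It lay at 15.2, 11.9, 14.2, 12.5 and 15.02 FPKM in WT-Con, and at 83.03, 44.3, 59.4, 12.7 and 16.04 FPKM in WT-IR 1 to 5, where the last pair was near the controls, and it did not pass (log2 fold change 1.30, standard error 0.39, limma adjusted p = 0.0701). Nfkbia, the inhibitor induced first, had 139.6, 139.8, 153, 159.6 and 179 FPKM in WT-Con and 153, 114, 157, 80.8 and 95.9 FPKM in WT-IR and was not called.

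Of the 7 called members with a promoter in the table, 1 held the NF-kB motif, Nfkb2. A promoter of Nfkb2 that holds it (chr19:46304487-46304786, plus strand) is printed with the motif in capitals. The other members of the list that hold it were not called, and 8 of 24 tested members with a promoter did so, against 1.63% of all promoters.
Nfkb2: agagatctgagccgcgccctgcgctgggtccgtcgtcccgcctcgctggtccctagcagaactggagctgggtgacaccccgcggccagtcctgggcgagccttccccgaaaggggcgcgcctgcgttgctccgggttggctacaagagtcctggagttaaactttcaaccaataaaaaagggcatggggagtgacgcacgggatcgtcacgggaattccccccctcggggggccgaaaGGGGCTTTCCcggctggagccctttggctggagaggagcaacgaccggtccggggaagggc
Across the comparison, the motif stood in 9 of the 161 downregulated genes with a promoter (5.59%), in 3 of the 246 upregulated genes (1.22%) and in 2.02% of the 11284 tested genes with a promoter. For TGANTCA of AP-1 the shares were 15.5%, 4.07% and 6.68%, and for the element of interferon factors, whose targets are among the genes counted only, 13.04%, 4.47% and 3.78%.

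Signals between cells moved in both directions. Of 50 cytokines and colony-stimulating factors with their receptors, 11 were downregulated and 2 upregulated, and of 44 chemokines and receptors 9 were downregulated and 6 upregulated. The median of the chemokine list was -0.07, and 0.03 without WT-Con 5. Among the downregulated chemokines were Ccl2, which draws monocytes (322, 272, 283, 322 and 486 FPKM in WT-Con, 181, 199, 259, 99.2 and 62.7 FPKM in WT-IR, limma adjusted p = 0.0139) and Cxcl1, which draws neutrophils (414, 418, 349, 519 and 541 FPKM in WT-Con, 319.5, 268, 317, 127 and 108 FPKM in WT-IR, limma adjusted p = 0.0237). Cx3cl1, the membrane-bound chemokine of endothelium, had 12.5, 10.96, 12.02, 13.6 and 12.2 FPKM and 8.25, 6.14, 7.67, 2.44 and 3.57 FPKM, with no overlap (log2 fold change -1.25). Tnf had 82.2, 96.8, 94.1, 131 and 143 FPKM in WT-Con and 74.98, 61.95, 76.7, 24.98 and 27.8 FPKM in WT-IR, where the 2 lowest were again WT-IR 4 and WT-IR 5. Il12b, a subunit of interleukins 12 and 23, changed from 2.44 ± 1.15 to 0.497 ± 0.289 FPKM and Fpr2, a formyl peptide receptor, from 1.89 ± 0.732 to 0.342 ± 0.189 FPKM, with log2 fold changes of -2.14 and -2.19. Acod1, which makes itaconate in activated macrophages, was among the largest decreases at 8.27, 7.75, 4.63, 11.8 and 10.7 FPKM in WT-Con and 3.08, 1.86, 2.33, 0.699 and 0.457 FPKM in WT-IR.

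The upregulated members were of another kind. Cxcl12, the stromal chemokine that holds cells in tissue, had 13.4, 15.9, 16.6, 13.9 and 10.2 FPKM in WT-Con and 20.6, 25.4, 29, 23.6 and 29.1 FPKM in WT-IR (log2 fold change 0.87, standard error 0.14, limma adjusted p = 0.00108), with no overlap. Its receptor Cxcr4, also a target of hypoxia, had 1.04, 0.843, 1.67, 0.875 and 1.17 FPKM and 4.43, 4.65, 3.66, 2.602 and 4.99 FPKM (log2 fold change 1.78, limma adjusted p = 0.00377). Cmklr1, a receptor of chemerin, went from 1.56 ± 0.3403 to 3.82 ± 0.653 FPKM. At the receptors of cytokines, Il1rl1, the interleukin-33 receptor, was low throughout at 0.122, 0.175, 0.157, 0.0787 and 0.102 FPKM in WT-Con and 0.3096, 0.324, 0.337, 0.2801 and 0.242 FPKM in WT-IR. Il6ra, the interleukin-6 receptor, rose from 0.606 ± 0.126 to 1.09 ± 0.241 FPKM, and both calls were lost with TPM scaling and with the WT hearts fitted alone. Without WT-IR 4 and WT-IR 5 there were 7 cytokine genes downregulated in place of 11, and 3 chemokine genes in place of 9. Leaving out WT-IR 5 alone gave 7 downregulated cytokine genes, and leaving out either WT-IR 4 or WT-IR 5 gave 3 upregulated chemokine genes in place of 6.

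Sensors and death genes shared the downward direction in part. Of 34 Toll-like receptors and adaptors 4 (11.8%) were downregulated and 1 (2.94%) upregulated. Of 33 death receptor, necroptosis and pyroptosis genes 5 (15.2%) and 2 (6.06%) were, and of 27 genes of the BCL2 family 2 (7.41%) and 0. The shares of all genes were 1.19% and 2.01%. Ripk2, the kinase below the NOD receptors, had 17.1, 20.4, 16.7, 26.7 and 26.2 FPKM in WT-Con and 9.09, 8.38, 8.53, 4.17 and 4.09 FPKM in WT-IR, with no overlap (log2 fold change -1.69, standard error 0.22, limma adjusted p = 0.000173). Nod2, a receptor of bacterial muramyl peptides, had 8.63, 8.38, 7.47, 9.898 and 5.07 FPKM and 4.26, 3.35, 2.83, 0.7703 and 1.29 FPKM, and Tlr1, a partner of Tlr2, changed from 1.88 ± 0.426 to 0.643 ± 0.209 FPKM. Gsdmd, the pore protein of pyroptosis, changed by less, from 6.89 ± 0.827 to 4.51 ± 0.3196 FPKM (log2 fold change -0.59), and was lost in 9 of 26 alternative settings. The 2 called BCL2 genes were Bcl2a1a and Bcl2a1d, near-identical copies whose reads may be shared, and in both WT-Con 5 was the highest heart at 9.85 and 23.8 FPKM. The 3 downregulated members of MHC class I and antigen processing, H2-Q5, H2-K2 and H2-Q7, are likewise close relatives, and 0 were called without WT-IR 4 and WT-IR 5. Vcam1 and Icam1, which endothelium displays to leukocytes, were 2 of 23 adhesion genes and both fell, Icam1 from 247, 239.9, 223, 274 and 139.9 FPKM to 105, 99, 118, 32.7 and 48.1 FPKM (log2 fold change -1.61, limma adjusted p = 0.00159). Without WT-IR 4 and WT-IR 5, 2 genes of the Toll-like receptor list and 3 of the death list were downregulated. Podxl, a sialomucin of the luminal surface, rose from 18.3 ± 3.01 to 31.8 ± 5.37 FPKM.

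The list of endothelial transcription factors gave the highest share of upregulated members among the pathway lists. Members of the lists were chosen with earlier results of these data known, so this rank is a description only. Of 42 tested, 17 (40.5%) were upregulated and 2 downregulated, with a median log2 fold change of 0.45. The 17 were Id1, Zfp366, Id3, Gata2, Hic1, Sox17, Elk3, Ebf3, Hhex, Meox2, Mecom, Tal1, Lyl1, Hlx, Nr2f2, Foxc1 and Cebpa. They include factors of blood and endothelial precursors (Gata2, Tal1, Lyl1, Hhex), of arteries (Sox17) and of veins (Nr2f2). Gata2 had 0.422, 0.672, 0.774, 0.511 and 0.865 FPKM in WT-Con and 1.89, 1.94, 1.695, 1.72 and 2.66 FPKM in WT-IR, without overlap (log2 fold change 1.49, standard error 0.19, limma adjusted p = 0.000208). Zfp366, a zinc finger protein, had 1.03, 1.33, 0.951, 1.098 and 0.912 FPKM and 3.96, 3.87, 3.502, 2.65 and 3.37 FPKM (log2 fold change 1.61, limma adjusted p = 4.19e-05), and Sox17 had 0.903, 0.903, 1.54, 1.27 and 1.27 FPKM and 4.11, 3.32, 3.83, 2.54 and 2.63 FPKM (log2 fold change 1.41, limma adjusted p = 0.000423). Hic1, a repressor also known from quiescent mesenchymal cells, went from 0.606 ± 0.197 to 2.25 ± 0.792 FPKM. The 2 downregulated members were Meox1 (15.4, 12.2, 12.2, 11.8 and 12.9 FPKM in WT-Con, 5.65, 5.56, 9.33, 5.53 and 7.04 FPKM in WT-IR) and Bcl6b (40.7, 41.97, 42.3, 45.2 and 35 FPKM, 26.6, 28.8, 29.3, 14.1 and 18.9 FPKM). Meox2, its relative, was among those upregulated. Sox18 lay at 13.5, 12.4, 13.7, 13.5 and 11.6 FPKM and 7.65, 11.6, 12.8, 12.1 and 19.5 FPKM and was not called.

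The markers of endothelium as a cell type moved with this list. Of 15 markers 3 were upregulated (Tie1, Aqp1 and Kdr) and 14 had a positive log2 fold change, with a median of 0.45, the same as for the factors. Pecam1, however, had 23.5, 28.6, 26.7, 20.3 and 17.02 FPKM in WT-Con and 24.5, 30.8, 30.6, 26.2 and 29.8 FPKM in WT-IR (log2 fold change 0.31, standard error 0.12), and Cdh5, the junction protein, had 42.5, 42.5, 46.9, 36.8 and 16.02 FPKM and 53.1, 53.1, 43.1, 39.05 and 50.4 FPKM (log2 fold change 0.45, standard error 0.24). Both overlapped between groups and did not pass. The part that more endothelial RNA in the tissue has in the change of single factors was not tested. The count was 8 with the WT hearts fitted alone, 10 without WT-IR 4 and WT-IR 5 and 14 with TPM scaling, and the median stayed positive in each scaling.

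**Figure D3:**
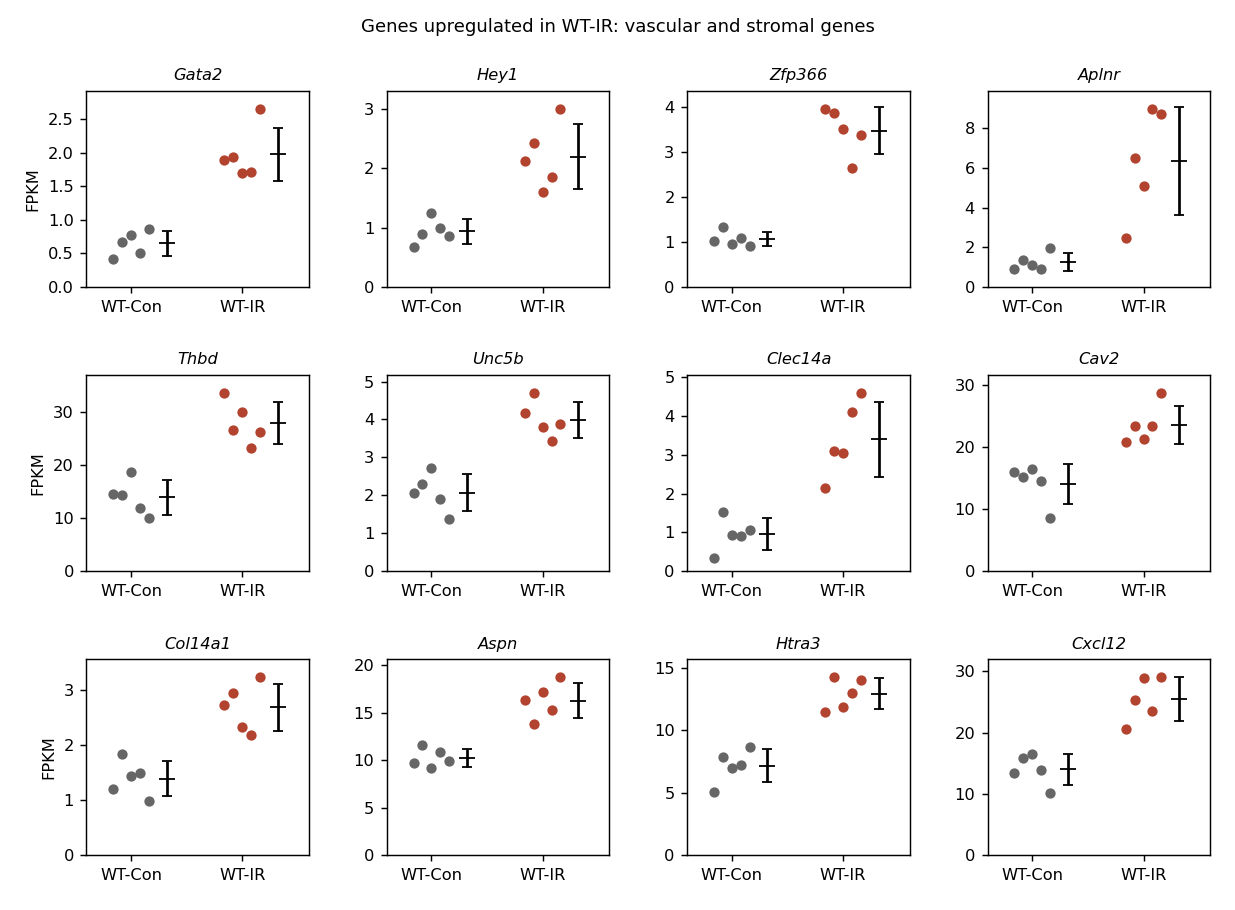
FPKM of 12 vascular and stromal genes that were upregulated in WT-IR, in each of the 5 WT-Con (grey) and 5 WT-IR (red) hearts, with the mean and SD beside the points and each axis starting at 0. In all 12 panels the lowest WT-IR heart lies above the highest WT-Con heart. This reflects the choice of genes: Gata2, Zfp366, Aplnr and Clec14a were named by a rule that requires it. Upregulated genes with overlap, such as Nos2 and Tcf21, are not plotted.

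Genes by which endothelium acts on clotting and vessel tone gave mostly upward calls. Of 45 vasoactive and hemostatic genes 9 were upregulated and 1 downregulated, with a median of 0.31. Thbd, thrombomodulin, which turns thrombin to an anticoagulant, had 14.6, 14.4, 18.7, 11.9 and 9.95 FPKM in WT-Con and 33.6, 26.6, 30.1, 23.3 and 26.2 FPKM in WT-IR, with no overlap (log2 fold change 1.02, standard error 0.15, limma adjusted p = 0.000499). Aplnr, the apelin receptor, had 0.884, 1.35, 1.13, 0.904 and 1.97 FPKM and 2.45, 6.48, 5.098, 8.98 and 8.71 FPKM, a log2 fold change of 2.18 (limma adjusted p = 0.00272), and WT-IR 1 lay closest to the controls. Alox12, the 12-lipoxygenase, changed from 0.405 ± 0.143 to 1.102 ± 0.118 FPKM and Nos2, the inducible nitric oxide synthase, from 1.33 ± 0.508 to 2.71 ± 0.793 FPKM. Edn1, endothelin, had 2.66, 2.43, 3.09, 2.81 and 2.93 FPKM in WT-Con and 7.96, 6.61, 6.69, 2.96 and 4.07 FPKM in WT-IR (limma adjusted p = 0.0192), where WT-IR 4 and WT-IR 5 were lowest. Nos3, the endothelial synthase, had 8.65, 8.23, 9.71, 8.75 and 6.23 FPKM and 9.12, 7.85, 8.39, 5.86 and 7.66 FPKM and was not called. Ptgir, the prostacyclin receptor of smooth muscle and platelets, was the downregulated member, from 3.93 ± 0.547 to 2.28 ± 0.2698 FPKM.

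Vessel growth and guidance genes followed, with 15 of 51 members upregulated (29.4%) and 1 downregulated, and a median of 0.45. The receptors and their partners among them were Unc5b, a netrin receptor of capillaries (2.07, 2.301, 2.71, 1.899 and 1.38 FPKM in WT-Con, 4.17, 4.698, 3.81, 3.43 and 3.88 FPKM in WT-IR, log2 fold change 0.94), Clec14a, an endothelial lectin (0.347, 1.53, 0.934, 0.9196 and 1.05 FPKM and 2.15, 3.09, 3.04, 4.12 and 4.596 FPKM, log2 fold change 1.80), and the ephrin Efnb1, from 4.02 ± 0.544 to 6.82 ± 0.714 FPKM. Arhgef15, an exchange factor of endothelial RhoA, went from 3.11 ± 0.519 to 6.95 ± 1.05 FPKM, without overlap (limma adjusted p = 9.23e-05). Vegfa, the main ligand, lay at 93.5, 70.4, 97.8, 86.9 and 41.2 FPKM in WT-Con and 80.7, 92.5, 109.6, 109 and 81.7 FPKM in WT-IR and did not pass (limma adjusted p = 0.468). Sema7a, a membrane semaphorin, fell from 23.5 ± 4.64 to 12.4 ± 1.38 FPKM. In Notch signaling 5 of 31 genes were upregulated and 1 downregulated. They were the ligand Jag2 (2.56 ± 0.218 to 4.57 ± 0.412 FPKM), the glycosyltransferases Eogt (2.105 ± 0.438 to 3.66 ± 0.333 FPKM) and Lfng (0.4497 ± 0.0939 to 1.27 ± 0.328 FPKM) that act on Notch receptors, the target Hey1 (0.936 ± 0.214 to 2.199 ± 0.545 FPKM) and Neurl1b. The ligand Dll4 had 4.15, 3.49, 5.496, 3.98 and 3.11 FPKM and 6.09, 6.597, 4.37, 3.05 and 4.72 FPKM and was not called. Neurl3, the downregulated member, is a ubiquitin ligase and went from 66.6, 80.7, 69.9, 82.04 and 94.7 FPKM to 34.6, 25.7, 34.7, 9.62 and 11.2 FPKM. With the WT hearts fitted alone, 4 vasoactive and 9 guidance genes were upregulated. In the coat of caveolae Cav2 (16.02, 15.2, 16.4, 14.5 and 8.52 FPKM in WT-Con, 20.8, 23.5, 21.4, 23.5 and 28.7 FPKM in WT-IR) and Ehd2 (11.8 ± 1.97 to 18.9 ± 2.82 FPKM) rose beside Cavin2, and 10 of 13 members were not called.

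The calls among matrix genes of fibroblasts were all upward. Of 56 members 16 (28.6%) were upregulated, 0 were downregulated, and 54 had a positive log2 fold change, with a median of 0.57. They were Crispld2, Scara5, Aspn, Col14a1, Medag, Sparcl1, Ecm2, Has1, Mrc2, Has3, Emilin1, Col6a6, Nepn, Tcf21, Fndc1 and Fmod. Col14a1, a collagen on the surface of collagen fibrils, had 1.22, 1.84, 1.44, 1.502 and 0.986 FPKM in WT-Con and 2.73, 2.95, 2.34, 2.196 and 3.24 FPKM in WT-IR (log2 fold change 0.91, standard error 0.16, limma adjusted p = 0.00274). Aspn, a small leucine-rich proteoglycan, had 9.72, 11.6, 9.203, 10.8 and 9.92 FPKM and 16.3, 13.8, 17.2, 15.3 and 18.7 FPKM (log2 fold change 0.66, limma adjusted p = 0.00145), and Crispld2, a secreted glycoprotein, had 9.39, 8.56, 9.4, 9.35 and 8.6 FPKM and 19.7, 15.7, 18.5, 13.1 and 15.6 FPKM (log2 fold change 0.85, limma adjusted p = 0.000292). None of the 3 overlapped between groups. Scara5, a ferritin receptor of stromal cells, changed from 2.62 ± 0.377 to 4.45 ± 0.467 FPKM. The fibrillar collagen Col1a1 had 8.96, 6.84, 10.6, 8.66 and 7.86 FPKM in WT-Con and 15.7, 17.1, 16.3, 8.19 and 10.2 FPKM in WT-IR and Postn, the mark of activated fibroblasts, 5.11, 5.27, 5.06, 5.18 and 4.66 FPKM and 9.12, 6.67, 6.18, 5.38 and 6.83 FPKM, and neither passed.

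Proteases of the matrix rose in 6 of 38 cases with 0 downregulated. Htra3, a secreted serine protease, had 5.09, 7.86, 6.98, 7.24 and 8.65 FPKM in WT-Con and 11.5, 14.2, 11.9, 12.98 and 14 FPKM in WT-IR, Pcsk6, a proprotein convertase that activates corin, changed from 9.04 ± 0.961 to 14.4 ± 0.969 FPKM, and Mmp2, gelatinase A, from 11.8 ± 1.24 to 18.8 ± 2.46 FPKM. In TGF-beta signaling Tgfb1 itself fell from 9.24, 10.02, 10.4, 11.2 and 15.2 FPKM to 6.84, 7.72, 7.4, 4.62 and 5.27 FPKM (log2 fold change -0.81, limma adjusted p = 0.00251), while its induced protein Tgfbi rose from 3.95 ± 0.524 to 6.56 ± 0.542 FPKM. Of 10 fibroblast markers 1, Tcf21, was upregulated and 10 had a positive value with a median of 0.47, and of 15 smooth muscle and pericyte markers 14 did, with a median of 0.32. These markers move with the matrix list, and their part in its change was not tested. The matrix count was 9 with the WT hearts fitted alone, 11 with TPM scaling and 22 when scaled to genes outside the mitochondrial genome.

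Resident macrophages were described by 18 markers, of which 4 were upregulated and 1 downregulated (2 and 1 without WT-IR 4 and WT-IR 5). A positive log2 fold change was found for 16 and a negative one for 2, with a median of 0.50. Stab1, a scavenger receptor, had 3.07, 3.64, 3.04, 3.37 and 2.39 FPKM in WT-Con and 5.53, 5.61, 4.96, 5.299 and 6.31 FPKM in WT-IR (log2 fold change 0.83, limma adjusted p = 0.000292), without overlap. Mertk, a receptor for dying cells, had 1.99, 2.06, 2.15, 1.83 and 0.871 FPKM and 3.04, 3.06, 2.903, 2.66 and 3.23 FPKM, where WT-Con 5 was low, and was not called without that heart. Timd4, another receptor for dying cells, was lower, from 3.33, 4.498, 2.92, 3.12 and 4.12 FPKM to 1.87, 1.79, 2.397, 2.51 and 2.16 FPKM (log2 fold change -0.71, limma adjusted p = 0.0089). Csf1, the growth factor of macrophages, was lower in the same hearts, at 177, 184, 159, 193 and 136 FPKM in WT-Con and 55.6, 51.3, 57.6, 24.1 and 32.1 FPKM in WT-IR.

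**Figure D4:**
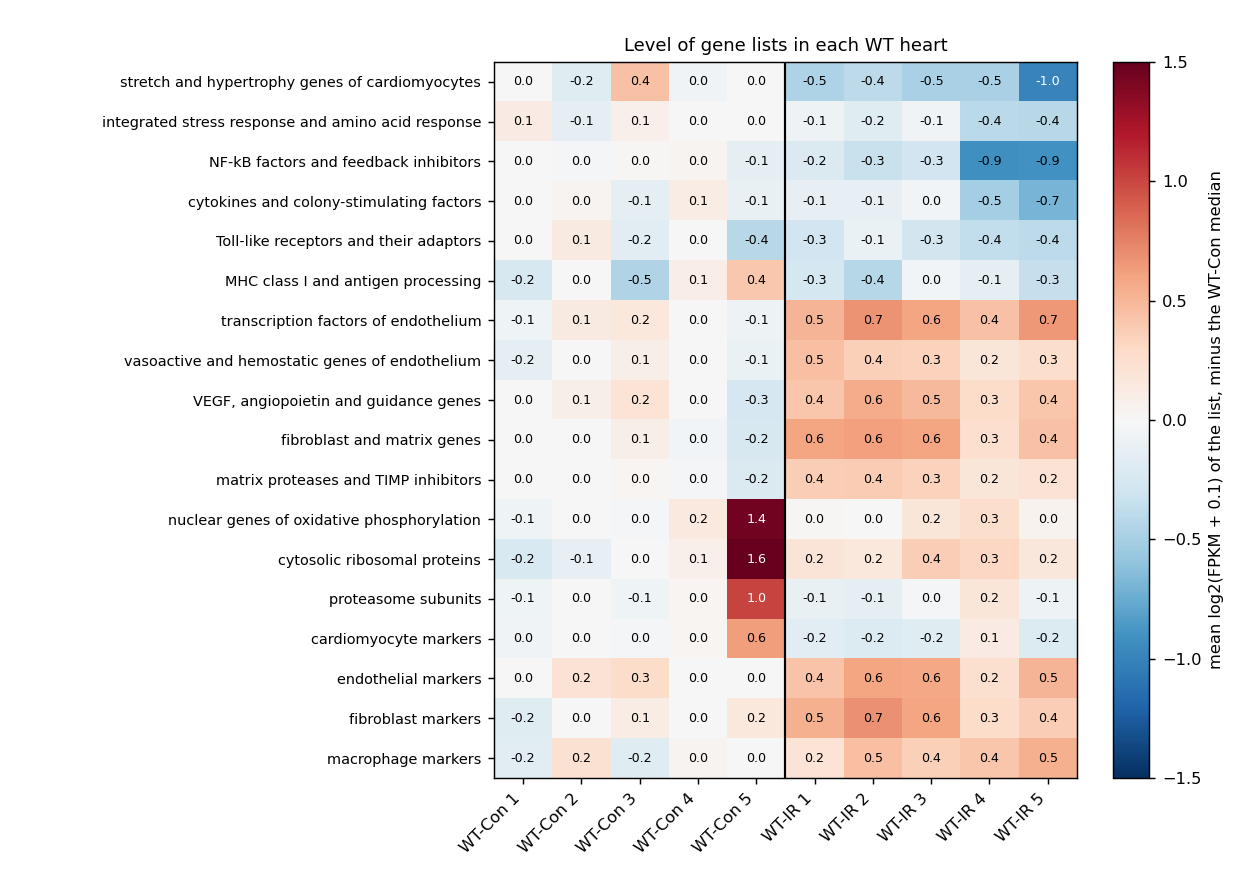
Mean log2(FPKM + 0.1) of 18 gene lists in each WT heart, after subtracting the median of the 5 WT-Con hearts (red higher, blue lower; the numbers are the differences in log2 units). The lists of endothelial factors, vasoactive genes, guidance genes, matrix genes and matrix proteases are above every WT-Con heart in all 5 WT-IR hearts, the NF-kB list is lowest in WT-IR 4 and WT-IR 5, and WT-Con 5 alone is high for genes of oxidative phosphorylation, ribosomal proteins and the proteasome.

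Kinase and receptor genes changed singly. The channel list, with 3.57% upregulated and 1.79% downregulated, lay near the shares of all genes (2.01% and 1.19%). Of 45 genes of the protein kinases C and D and the PI3K-AKT pathway 4 were downregulated and 1 upregulated. Beside Prkd2 these were Pik3r5, a regulatory subunit of PI3K gamma (3.18, 3.25, 2.3, 2.76 and 1.63 FPKM in WT-Con, 0.919, 1.01, 1.27, 0.651 and 0.376 FPKM in WT-IR, log2 fold change -1.58), the adaptor Pik3ap1, from 1.86 ± 0.3904 to 0.9999 ± 0.208 FPKM, and Prkcd, from 4.996 ± 0.362 to 3.25 ± 0.339 FPKM (log2 fold change -0.61), which was lost in 8 of 26 alternative settings. Inpp5d, the phosphatase SHIP-1 that opposes PI3K, rose from 0.496 ± 0.126 to 1.13 ± 0.317 FPKM. Among MAP kinase regulators the inhibitors of ERK signaling Spry1 (2.76, 2.04, 4.35, 2.32 and 1.76 FPKM in WT-Con, 7.25, 8.74, 7.25, 7.41 and 7.93 FPKM in WT-IR) and Dusp6 (3.86, 4.63, 5.14, 4.33 and 3.82 FPKM and 11.9, 12.7, 9.14, 7.11 and 6.81 FPKM) rose, whereas Dusp10, which acts on JNK and p38, fell from 12.4, 6.56, 18.4, 10.2 and 7.95 FPKM to 3.901, 6.19, 4.903, 3.68 and 3.102 FPKM (log2 fold change -1.28, limma adjusted p = 0.00618). Of 50 G protein-coupled receptors 9 were upregulated (5 without WT-IR 4 and WT-IR 5) and 2 downregulated. Gpr183, the oxysterol receptor, had 0.2402, 0.0728, 0.0934, 0.125 and 0.0443 FPKM in WT-Con and 0.793, 0.976, 0.2102, 0.6003 and 0.812 FPKM in WT-IR, and S1pr2, a receptor of sphingosine 1-phosphate, changed from 1.67 ± 0.288 to 0.828 ± 0.295 FPKM. Of 56 ion channel and calcium genes 3 were called: the potassium channel Kcna5 rose from 3.06, 3.05, 2.72, 2.73 and 2.06 FPKM to 5.44, 4.62, 4.73, 4.91 and 5.45 FPKM (limma adjusted p = 0.000398), the accessory subunit Kcne4 rose from 1.46 ± 0.527 to 3.42 ± 1.48 FPKM with overlap between groups and was lost in 9 of 26 alternative settings, and the stretch- and heat-gated channel Trpv4 fell from 4.81, 3.597, 2.85, 3.96 and 3.81 FPKM to 1.86, 1.74, 2.37, 1.895 and 1.78 FPKM. Rgs4, which shortens signals of Gq and Gi, rose from 3.52 ± 0.866 to 5.92 ± 0.856 FPKM.

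Genes of division and of daily rhythm moved in single cases. Ccnd1, cyclin D1, had 3.902, 4.09, 4.74, 5.38 and 2.201 FPKM in WT-Con and 8.04, 7.13, 7.88, 9.29 and 10.7 FPKM in WT-IR, with no overlap (log2 fold change 1.11, limma adjusted p = 0.00143), and Timeless, which acts at replication forks, rose from 2.09 ± 0.364 to 4.16 ± 0.562 FPKM. Cenpa, the centromere histone, fell from 30.1, 18.8, 35.9, 24.8 and 13.5 FPKM to 7.53, 10.3, 10.8, 11.9 and 6.36 FPKM and Pola2, a subunit of DNA polymerase alpha, from 3.16, 3.15, 2.899, 3.42 and 3.23 FPKM to 1.38, 1.904, 1.89, 1.62 and 1.51 FPKM (log2 fold changes -1.34 and -0.90). Of 45 cell cycle genes 3 were upregulated and 3 downregulated. Noct, a rhythmic phosphatase of NADPH, fell from 20.03, 16.5, 20.4, 17.6 and 20.3 FPKM to 11.98, 9.09, 10.02, 4.67 and 5.35 FPKM. In the aryl hydrocarbon pathway the receptor and its best known target went opposite ways. Ahr had 0.892, 0.426, 0.7804, 0.521 and 0.488 FPKM in WT-Con and 1.39, 2.21, 1.39, 1.695 and 1.84 FPKM in WT-IR (log2 fold change 1.35, limma adjusted p = 0.000237), and Cyp1a1 had 4.94, 5.53, 5.34, 3.96 and 1.79 FPKM and 0.392, 0.4196, 1.83, 0.924 and 0.767 FPKM (log2 fold change -2.28, limma adjusted p = 0.00235).

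Energy metabolism and protein turnover gave almost no calls. Of 54 nuclear genes of oxidative phosphorylation, 13 protein genes of the mitochondrial genome, 49 ribosomal protein genes, 48 genes of ribosome biogenesis, 32 proteasome subunits and 23 complement genes, 0 were called. The nuclear respiratory genes had a median of -0.21 and 0.08 without WT-Con 5, so the sign rested on that heart. The mitochondrial share of fragments was 28.8% ± 7.70 in WT-Con and 35.1% ± 4.02 in WT-IR (SD, n = 5, exact permutation test, two-sided p = 0.111), and without WT-Con 5 the control mean was 32.2% (exact permutation p = 0.214). Of 47 genes of fatty acid oxidation 1 was called. It was G0s2, the inhibitor of adipose triglyceride lipase, with the largest log2 increase of the named genes: 1.08, 2.65, 1.703, 4.62 and 9.04 FPKM in WT-Con and 11.5, 14.04, 23.3, 18.2 and 48.2 FPKM in WT-IR (log2 fold change 2.74, standard error 0.42, limma adjusted p = 0.000706), without overlap, and with the highest WT-Con and the highest WT-IR values in the hearts numbered 5. It was not called with the WT hearts fitted alone. Of 43 glycolysis genes Pgam1 (7.61 ± 1.71 to 12.9 ± 1.35 FPKM) and G6pdx (1.07 ± 0.162 to 1.84 ± 0.381 FPKM) were upregulated, G6pdx with overlap between groups and lost in 14 of 26 alternative settings, and 0 were called with TPM scaling, with the WT hearts fitted alone or without WT-IR 4 and WT-IR 5. In lipid synthesis Elovl5, an elongase of polyunsaturated fatty acids, rose from 4.79, 6.24, 6.02, 4.97 and 4.52 FPKM to 9.04, 9.298, 9.66, 7.93 and 8.64 FPKM (limma adjusted p = 0.000431) and Scarb1, the HDL receptor, from 1.98 ± 0.448 to 3.19 ± 0.247 FPKM. Pdk4, the kinase that shuts pyruvate dehydrogenase, had 973, 427, 1033, 510.3 and 222 FPKM in WT-Con and 374, 473, 351, 307 and 198 FPKM in WT-IR and was not called. Of 38 NRF2 targets and metallothioneins 2 were upregulated (G6pdx and Xdh), and of 27 genes of the unfolded protein response of the endoplasmic reticulum 2 were downregulated (Retreg1 and Crebrf), with 0 of either list called with the WT hearts fitted alone. Among their uncalled members Hmox1 had 21.9, 28.4, 23.3, 15.5 and 9.25 FPKM in WT-Con and 41.4, 30.7, 24.2, 11.1 and 16.3 FPKM in WT-IR, and Hspa5, the chaperone of the endoplasmic reticulum, 154, 95.8, 174, 122 and 169.9 FPKM and 184, 181, 169, 126 and 106 FPKM.

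Among genes in none of these lists, those named were the ones of smallest p and largest fold. Ggta1, which makes the alpha-gal epitope of mouse glycans, had 1.55, 1.92, 2.24, 1.76 and 1.101 FPKM in WT-Con and 4.101, 4.27, 3.99, 4.46 and 5.25 FPKM in WT-IR (log2 fold change 1.34, limma adjusted p = 7.03e-05). Fmnl3, a formin of endothelial actin, rose from 3.07, 3.42, 3.26, 3.29 and 3.199 FPKM to 5.21, 6.04, 6.38, 5.48 and 6.81 FPKM (log2 fold change 0.86, limma adjusted p = 7.57e-05), and Akr1c14, a hydroxysteroid dehydrogenase, from 1.38, 1.38, 1.46, 1.51 and 1.25 FPKM to 3.38, 3.33, 3.25, 2.84 and 4.01 FPKM. Tmem204, a membrane protein of endothelium, changed from 3.98 ± 1.09 to 10.02 ± 1.94 FPKM and Gas1, a hedgehog co-receptor, from 2.57 ± 0.512 to 6.53 ± 1.35 FPKM. Cmtm5 and Rasl11a were low in controls and went from 0.112 ± 0.1499 to 1.13 ± 0.388 FPKM and from 0.308 ± 0.193 to 1.49 ± 0.518 FPKM. On the downregulated side Klhl25, an adaptor of the CUL3 ubiquitin ligase, changed from 2.65, 2.56, 2.296, 2.696 and 3.17 FPKM to 0.972, 0.841, 1.25, 0.732 and 1.19 FPKM (log2 fold change -1.36, limma adjusted p = 2.81e-05). Mob3c, a kinase activator of the MOB family, went from 8.11, 7.88, 7.16, 9.89 and 10.9 FPKM to 4.41, 4.06, 4.86, 2.53 and 3.12 FPKM (log2 fold change -1.21). Slc16a11, a monocarboxylate transporter, stood at 8.53, 8.62, 8.68, 8.67 and 4.29 FPKM in WT-Con, where WT-Con 5 was apart, and 3.36, 3.25, 3.05, 0.504 and 1.41 FPKM in WT-IR. These 10 genes were chosen among genes without overlap between WT-IR and WT-Con hearts. Slc16a11 and Rasl11a were not called with the WT hearts fitted alone.

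The genes called in WT hearts moved mostly the same way in fat-1 hearts under the same protocol, with smaller values for many of them. Of the 583 genes, 557 had the same sign in Fat1-IR against Fat1-Con, and of the 149 genes named for the WT response 66 passed the test there in the same direction. The genes were chosen on their WT values, so the smaller values in fat-1 hearts cannot be read as a difference between genotypes. In the interaction of genotype and IR, 0 of the 149 had a limma adjusted p under 0.05 over all genes. An unadjusted limma p under 0.05 was found for 52. The interaction contains the same WT contrast, so the choice of genes favors small unadjusted p-values, and the 52 cannot be read as a difference either. The fat-1 values include Fat1-IR 1 and Fat1-IR 4, which stood apart in composition, and were not fitted without them. In Fat1-IR 1, 13.9% of fragments were mitochondrial, against 31.0% to 36.7% in the other Fat1-IR hearts. The stretch list had a median of -0.09 in fat-1 hearts and 2 of 37 downregulated members, beside -0.56 and 14 in WT hearts. The NF-kB list had -0.22 and 4 beside -0.51 and 9, the endothelial factor list 0.36 and 11 upregulated beside 0.45 and 17, and the matrix list 0.31 and 3 beside 0.57 and 16. The lists given only as counts did not have fewer calls in fat-1 hearts. Their medians were 0.41 in fat-1 beside 0.02 in WT hearts for chaperones and 0.78 beside 0.12 for immediate-early genes. For interferon genes they were nearly equal, at -0.60 beside -0.63. In fat-1 hearts 16 chaperone genes were upregulated beside 8, 9 immediate-early genes beside 8, and 34 interferon genes were downregulated beside 32. Over all genes, the paper counts more changes after IR with the transgene than without it. These lists therefore cannot be read as a weaker response of fat-1 hearts. Ankrd1 had a log2 fold change of -0.31 in fat-1 and -0.93 in WT hearts (interaction, limma unadjusted p = 0.0269, adjusted p = 0.831), and Chac1 -0.57 and -1.20 (unadjusted p = 0.0313, limma adjusted p = 0.831). Pcsk6 had 0.11 and 0.67 (unadjusted p = 0.000833, limma adjusted p = 0.805), the smallest p of the named genes. Gata2 (1.58 and 1.49), Cxcr4 (1.93 and 1.78) and Tlr1 (-1.53 and -1.43) had values of like size in both.

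**Figure D5:**
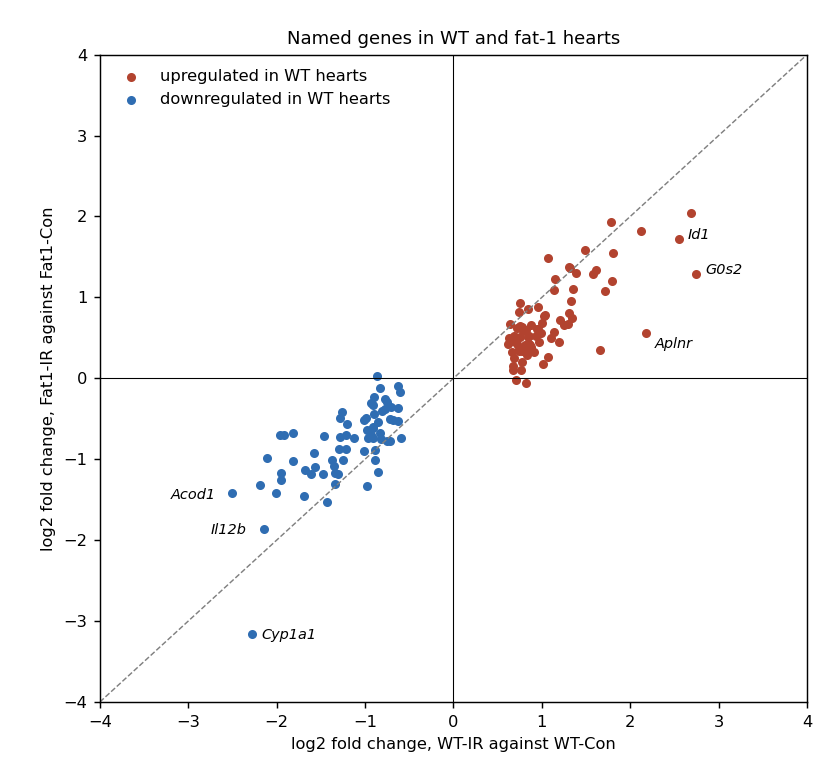
Log2 fold change of the 149 named genes in WT hearts (x axis) and in fat-1 hearts (y axis), red for genes upregulated and blue for genes downregulated in WT hearts; the dashed line marks equal values. Most points lie in the quadrants of equal sign and nearer to 0 on the y axis; the genes were chosen by their WT values. Aplnr and G0s2 lie farthest from the line.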

How the data were processed

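Total RNA of the myocardium of 5 hearts per group was sequenced, and the authors deposited 1 table of FPKM per gene. The labels name HISAT2 and featureCounts with mm10, without versions. Multiplied by exon lengths of GENCODE M21, 98.5% of 31217 genes gave whole fragments in every library (tolerance 0.02 fragments), from which depth was read. A gene of 2 kb was at 0.032 FPKM for 1 fragment in the shallowest WT library. On log2(FPKM + 0.1), a scale that understates changes of low genes, limma 3.58.1 (R 4.3.3) fitted all 4 groups with a variance trend (16 residual degrees of freedom), with Benjamini-Hochberg adjustment over 18219 genes. Genes with an adjusted p under 0.05 and a fold over 1.5 were called. The pseudocount was 0.1 and the filter a mean of 0.1 FPKM.

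Named genes were the 15 of smallest p and the 10 of largest change per direction among genes without overlap and outside the chaperone, interferon and immediate-early lists, and up to 4 called members of smallest p per list and direction, 149 in all. The members, the 58 lists and the rule were chosen with earlier results of these data known. Other genes given with values (Flnc, Ccl2, Cxcl1, Tnf, Sox17, Edn1 and all genes described as not called) were chosen after their values were seen. Labels number the 5 hearts of a group, and the paper gives 5 mice for the expression profiling. An exact permutation test of 5 against 5 hearts cannot give a two-sided p below 0.008. Promoters were matched by symbol for 11284 tested genes. In simulated data for this comparison with 17942 genes, 50 genes were changed at each fold, with 14 false calls. The share recovered was 24% at 1.5-fold, the fold threshold of the calls, 54% at 2-fold, 98% at 4-fold and 94% at 8-fold. Whether these rates hold for the measured hearts, where WT-Con 5 stood apart, was not tested.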

Additional observations from a re-analysis of the deposited data

Results flagged for a closer look

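Among 300 groups of 5 hearts (each named gene and the mitochondrial share in WT-Con and in WT-IR), 22 had 1 heart set apart from the other 4 by a gap of more than 0.71 of the whole range. Chance alone sets apart about 1 in 20, or 15, and 14 of the 22 were WT-Con 5. In that heart 15.1% of fragments were mitochondrial, against 31.5% to 33.8% in the other WT-Con hearts. It was low for the death receptor Tnfrsf21 (1.32 FPKM), Cav2 (8.52 FPKM), Mertk (0.871 FPKM), Slc16a11 (4.29 FPKM), Retreg1 (112.0 FPKM) and Sema7a (15.4 FPKM). It was high for Ccl5 (34.3 FPKM), Bcl2a1a (9.85 FPKM), Bcl2a1d (23.8 FPKM), Otulin (34.6 FPKM), Cxcl16 (25.0 FPKM), H2-K2 (24.9 FPKM) and Des (825.7 FPKM).

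In other control hearts, WT-Con 3 was low for Tril (0.0838 FPKM) and high for Tcf21 (3.96 FPKM), WT-Con 2 was high for Mrc1 (7.01 FPKM) and WT-Con 4 was high for Il12b (4.41 FPKM). Among IR hearts, WT-IR 5 was high for Gata2 (2.66 FPKM) and Inpp5d (1.69 FPKM), WT-IR 4 was low for Prkd2 (3.35 FPKM) and WT-IR 3 was high for Trpv4 (2.37 FPKM).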

How the results depend on the processing

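Against 367 upregulated and 216 downregulated genes, 188 were upregulated with a pseudocount of 1, 214 with TPM scaling and 596 when scaled to genes outside the mitochondrial genome. The WT hearts fitted alone gave 138 and 66, array weights gave 642 and 351, a fold over 2 gave 162 and 112, and the fit without the 3 libraries that stood apart (WT-Con 5 and, in fat-1 hearts, Fat1-IR 1 and 4) gave 575 and 349. Leaving out 1 WT heart gave 253 to 437 upregulated and 140 to 309 downregulated genes, the lowest without WT-IR 5 and the highest without WT-Con 5. Of 2 alternatives added after seeing the data, voom on the fragments gave 387 and 237, and leaving out WT-IR 4 and WT-IR 5 gave 241 and 115. With the replicate number as a block the counts were 339 and 196; same-numbered hearts had correlations of -0.005 to 0.057, so the numbers did not pair the hearts. Of the 149 named genes 47 were called in every setting in which they were tested, and 56 in every such setting other than the WT hearts fitted alone. Some low genes, such as Cmtm5, Alox12 and Lfng, were tested in 25 of the 26 settings. None of the named genes changed direction. The cause of these shifts was not tested. Depth limits the precision of low genes.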
